A study of Mus musculus with 6 samples.

Results

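The genes described here encode the cytokines of the IL-6, IL-10 and IL-12 families, in mouse bone marrow-derived macrophages (BMDMs) stimulated with LPS. Members were the entries of the count table whose Ensembl identifier, without its version, carried 1 of 10 gene symbols in GENCODE release M21. These were Il6, Lif, Osm, Clcf1, Il10, Il12a, Il12b, Il23a, Il27 and Ebi3, and all 10 were found among the 55335 entries. The rule itself uses no expression value, though the genes were picked with earlier results of these data known. Wild-type BMDMs (WT in the library names) were grown from marrow of C57BL/6 mice for 6 d in medium containing L929-conditioned medium, then given either PBS (Control) or LPS, the bacterial lipopolysaccharide sensed by TLR4, and harvested after 1 h. Total RNA was sequenced in 3 Control and 3 LPS libraries, each with a total between 37787611 and 41516330 counts. The comparison asks which transcripts LPS had changed at this early time. The study's methods state that its mice were male and give their age as a range in weeks, while the LPS concentration of these cultures is not given in the labels. The methods state in general that experiments were repeated independently, but no source used here says whether the 3 libraries of a group came from separate mice or cultures, and p-values may then measure technical spread between these libraries.

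IL-6, LIF, OSM and CLCF1 are secreted helical cytokines that signal through receptor complexes containing gp130, the product of Il6st, and activate JAK kinases and STAT3. IL-10 signals through Il10ra and Il10rb, also to STAT3, and restrains macrophage activation. The IL-12 family consists of heterodimers, in which Il12b encodes the subunit shared by IL-12 (with Il12a) and IL-23 (with Il23a), and Ebi3 encodes the partner of Il27 in IL-27 and of Il12a in IL-35. In macrophages these genes are classical targets of Toll-like receptor signalling, and their mRNAs are mostly short-lived.

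The RNA carried the markers of the labelled cell type. All 8 macrophage markers were measured, and none of them changed past the criteria given below. In edgeR's test 7 had an unadjusted p under 0.05, as had 10996 of all 15687 tested genes. The summed level of the 8 markers was 29745 to 31027 CPM (library-scaled counts, here with TMM factors) in Control and 32512 to 32856 CPM in LPS libraries, most of it from Lyz2. Other cell types had far lower summed levels. The 8 dendritic cell markers summed to 92.9 to 102 CPM in Control and 105 to 108 CPM in LPS libraries, mostly from Itgax, and 5 of the 8 (Flt3, Zbtb46, Xcr1, Cd209a and Siglech) were higher in LPS past the criteria, beside 10.5% of all tested genes. Control libraries held 2, 1 and 2 counts of Xcr1 and 8, 8 and 10 of Cd209a, so both passed the filter on low counts through their LPS libraries. With library size as the only scaling, Cd209a (0.88) and Siglech (0.67) were below the criterion of 1. Batf3 had a log2 fold change of -0.69 (adjusted p = 0.000986, edgeR), Clec9a of 0.38 and Itgax of 0.05, none past the criteria. Sums were 26.5 to 27.4 and 33.8 to 35.6 CPM for 8 neutrophil genes, 21.7 to 23.8 and 32.0 to 32.4 CPM for 8 T or NK cell genes, and 114 to 118 and 103 to 108 CPM for 6 B cell genes, in Control and LPS libraries in that order. For 5 mast cell genes they were 0.672 to 0.840 and 0.852 to 1.38 CPM, with Mcpt4 and Tpsb2 at 0 in all 6 libraries, and for 6 stromal genes 14.7 to 15.9 and 18.0 to 21.1 CPM, with Pdgfrb higher past the criteria. Pdgfrb was at 0.91 with library size as the only scaling. The part of these differences in the cytokine values was not tested. In bulk RNA, fewer cells that express a gene and less RNA per cell cannot be told apart.

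Promoter sequence is shown for the members that bear on the contrasts reported here, namely the gene with the largest fitted rise (Il6), the gene with the smallest (Ebi3), Lif, and Il12b, whose level in LPS libraries was far above that of its partner Il12a. Of the 10 members, 5 had an entry in the RefSeq promoter table (GRCm38.p6), with 6 windows because Il12a has 2 starts. Osm, Clcf1, Il10, Il23a and Il27 had none. Each line gives 250 bases upstream of the start, 5′ to 3′ on the strand of the gene, and capitals mark matches to a searched motif. The windows are chr5:30012864-30013113 for Il6, chr17:55952373-55952622 for Ebi3, chr11:4257318-4257567 for Lif and chr11:44399813-44400062 for Il12b, all on the plus strand.
Il6: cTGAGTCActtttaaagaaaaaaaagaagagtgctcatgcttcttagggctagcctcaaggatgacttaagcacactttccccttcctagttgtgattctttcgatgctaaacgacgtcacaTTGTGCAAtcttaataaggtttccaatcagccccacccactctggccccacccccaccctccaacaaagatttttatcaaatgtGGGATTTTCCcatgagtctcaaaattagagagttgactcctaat
Ebi3: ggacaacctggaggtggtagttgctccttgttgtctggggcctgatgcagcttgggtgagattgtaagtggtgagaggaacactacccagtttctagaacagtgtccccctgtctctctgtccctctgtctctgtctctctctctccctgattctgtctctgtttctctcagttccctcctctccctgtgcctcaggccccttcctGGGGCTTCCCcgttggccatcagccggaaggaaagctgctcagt
Lif: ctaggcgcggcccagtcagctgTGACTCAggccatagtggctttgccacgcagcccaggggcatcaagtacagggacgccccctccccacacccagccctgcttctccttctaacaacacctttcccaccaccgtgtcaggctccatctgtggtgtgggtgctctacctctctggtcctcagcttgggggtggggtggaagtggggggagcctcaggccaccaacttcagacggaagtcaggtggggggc
Il12b: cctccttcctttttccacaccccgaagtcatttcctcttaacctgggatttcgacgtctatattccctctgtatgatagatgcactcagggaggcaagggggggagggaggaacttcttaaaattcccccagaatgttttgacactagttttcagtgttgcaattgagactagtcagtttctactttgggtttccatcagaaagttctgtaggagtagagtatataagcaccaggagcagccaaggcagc

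The search covered 250 bases before to 50 bases after each start, on both strands, for an NF-kB site, AP-1 (TGANTCA, which reads the same on both strands), CRE (TGACGTCA), C/EBP (TTNCNNAA), the TATA box (TATAAA) and the core of the interferon-stimulated response element. In Il6 it found an NF-kB match from -44 to -35 (GGGATTTTCC), a C/EBP match on the minus strand from -128 to -121 and an AP-1 match from -249 to -243, counted from the RefSeq start. Ebi3 had an NF-kB match at the same distance from its RefSeq start, from -44 to -35 (GGGGCTTCCC), and Lif an AP-1 match from -228 to -222 (TGACTCA). The RefSeq start of Ebi3 (55952623) lies upstream of its M21 gene start (55952640), from which the match would be farther away. Neither Il12b nor either Il12a window held any of the 6 motifs. Among 32851 promoter windows of the same length, 4.51% held the NF-kB motif, 7.81% AP-1, 1.79% CRE, 40.7% C/EBP, 13.6% the TATA box and 6.98% the interferon element. A match describes letters only, and the strongest and the weakest riser among the tested members both carried an NF-kB match at one position from the RefSeq start.

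After 1 h of LPS, 9 of the 10 cytokine genes were higher, by a log2 fold change between 1.27 (Ebi3) and 11.63 (Il6), and the tenth, Il12a, stayed at 2 to 7 counts per library. A gene was called when the Benjamini-Hochberg adjusted p of edgeR's quasi-likelihood test, taken over 15687 genes, was under 0.05 and its log2 fold change lay above 1 or below -1. By these criteria 10.5% of tested genes were higher in LPS, 10.4% lower and 20.9% changed in either direction. Of the 10 members 9 passed the filter on low counts and were tested, and the 9 were called higher. Il6, Lif, Il12b and Il23a passed that filter through their LPS libraries, so that a difference was built into their passing, and the count over tested members is a description. The median log2 fold change of the 9 was 6.50, against -0.01 over all tested genes. The share of all tested genes whose groups did not overlap was not computed, so separate ranges are given below as descriptions.

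**Figure D1:**
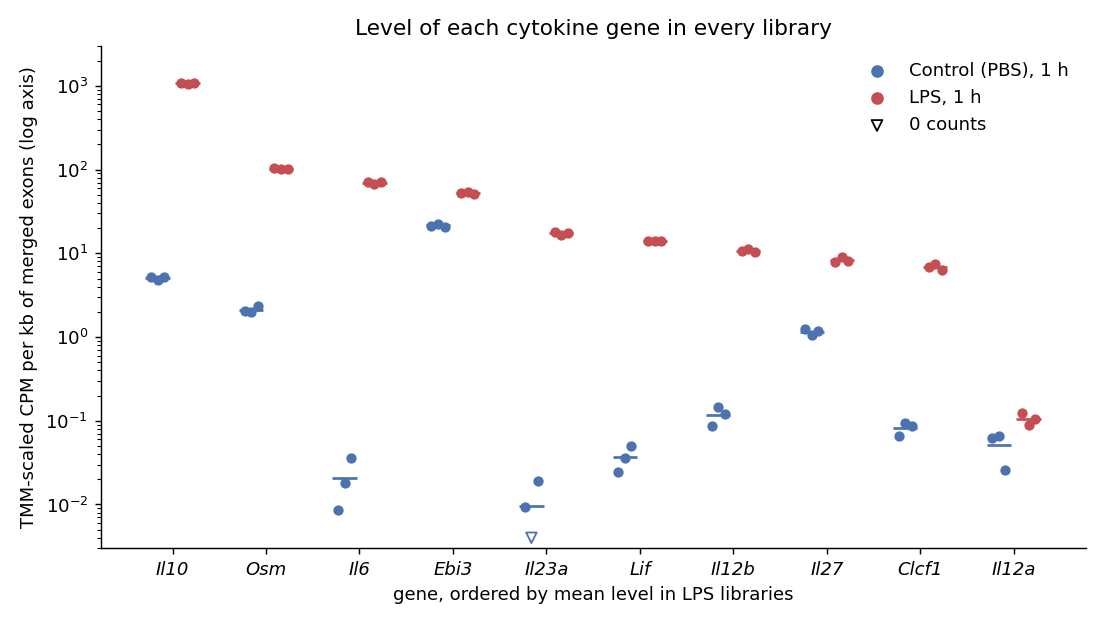
Level of each cytokine gene in CPM per kb of merged exons (log axis), with 1 point per library, blue for Control, red for LPS and a bar at the group mean. LPS libraries lie above Control libraries for all 10 genes, from Il10 at 1045 to 1096 in LPS down to Il12a at 0.0901 to 0.123, and the open triangle marks the Control library in which Il23a had 0 counts. The share of all tested genes with groups separated in this way was not computed.

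Il6 encodes the inflammatory cytokine after which the IL-6 family is named, which drives the hepatic acute-phase response. It lies at chr5:30013114-30019981 on the plus strand (GRCm38, ENSMUSG00000025746.11). Control libraries 1 to 3 held 1, 2 and 4 counts, and LPS libraries 5798, 5293 and 5885 counts. The Control group was thus at the edge of detection while each LPS library held over 5000 counts. In CPM the LPS level was 169 ± 6.16 (SD, n = 3). The ratio of summed counts after scaling was 3362, with a 95% counting interval of 1631 to 8362. The fitted log2 fold change of 11.63 (SE 0.10, adjusted p = 3e-23, edgeR's quasi-likelihood test with Benjamini-Hochberg adjustment) rests on 7 Control counts in all, depends on the prior count and was 12.22 without Control replicate 3. It ranked at 6 of 15687 by fitted change. The SE of Il6 was derived from the F statistic and is too small for so few Control counts, as the counting interval shows. The same holds for the SEs of Lif, Clcf1, Il12b, Il23a and Il19 given below. Intervals given here cover counting error only, since they use counts pooled over the libraries of each group and leave out the spread between libraries. The reads carry no molecular identifiers, so duplicate reads could make these intervals too narrow.

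Lif and Osm are neighbours on chromosome 11, separated by 16530 bp and transcribed from the same strand. Lif (chr11:4257557-4272514, plus strand, ENSMUSG00000034394.14) encodes leukemia inhibitory factor, a gp130 cytokine known for sustaining mouse embryonic stem cells. PBS-treated libraries held 5, 7 and 10 counts and LPS-treated ones 2031, 2017 and 2082. Osm (chr11:4236420-4241026, plus strand, ENSMUSG00000058755.3) encodes oncostatin M, which acts on stromal, endothelial and hepatic cells. It was already present in Control, with 219, 206 and 246 counts, and reached 7897, 7606 and 7898 counts in LPS. The libraries of both genes fell into separate ranges with no overlap. The level of Lif went from 0.159 ± 0.0560 to 61.2 ± 0.639 CPM (SD, n = 3), and the log2 fold change was 8.57 (SE 0.10, adjusted p = 1.48e-21, edgeR). The level of Osm went from 4.83 ± 0.435 to 233 ± 1.67 CPM (SD, n = 3), and the log2 fold change was 5.59 (SE 0.05, adjusted p = 3.93e-23, edgeR). Fold changes were 379 for Lif and 48.3 for Osm. On the scale of CPM per kb, Osm nevertheless stayed the higher of the pair in LPS libraries, at 102 to 104 against 13.9 to 14.2 for Lif. The coding gene on the other side of Osm, Castor1, which lies 14010 bp away, rose by a log2 fold change of 1.16, while Hormad2 beyond Lif held 0 or 1 count in Control and 3 to 6 counts in LPS libraries and was not tested.

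Clcf1 encodes cardiotrophin-like cytokine factor 1, a gp130 cytokine that acts through the ciliary neurotrophic factor receptor. It lies at chr19:4214238-4223490 on the plus strand (ENSMUSG00000040663.9). Control libraries held 12, 16 and 15 counts, and LPS libraries 879, 932 and 829. The groups did not overlap, and the level went from 0.310 ± 0.0526 to 26.4 ± 2.1 CPM (SD, n = 3). The log2 fold change was 6.40 (SE 0.13, adjusted p = 3.39e-18, edgeR's quasi-likelihood test), an 84.3-fold rise. A second annotated coding gene on the same strand, AC109138.7, shares 311 exon bases with Clcf1, and a single count was assigned to it across the 6 libraries. How reads in the shared bases were counted is not given in the sources used here. Rad9a, the nearest coding gene on one side, had a log2 fold change of -0.99 and Pold4, on the other, of 0.04, neither past the criteria.

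Il10 encodes the principal anti-inflammatory cytokine of macrophages, and in LPS libraries it was the most abundant member on every scale used. It lies at chr1:131019845-131024974 on the plus strand (ENSMUSG00000016529.5). Control libraries held 323, 284 and 315 counts and LPS libraries 47965, 44681 and 48867 counts. All 3 LPS libraries were more than 100-fold above each Control library. The level went from 6.63 ± 0.300 to 1411 ± 36.9 CPM (SD, n = 3), and the log2 fold change was 7.73 (SE 0.05, adjusted p = 1.22e-24, edgeR), which is 213-fold. Il10 was therefore expressed before stimulation, unlike Il6 and Il23a, and its fold change rests on 922 Control counts. Its flanking coding genes also changed. Mapkapk2, which encodes a p38-activated kinase and lies 28725 bp away, rose from 338 ± 11.6 to 896 ± 10.3 CPM (SD, n = 3), or 1.41 as a log2 fold change. Il19, another IL-10 family cytokine, 79729 bp away, rose as described below.

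Il12b and Il12a, which encode the subunits of IL-12, stood far apart in LPS libraries. Il12b (chr11:44400063-44414033, plus strand, ENSMUSG00000004296.14) was low with PBS, at 8, 13 and 11 counts, and stood at 712, 713 and 692 counts with LPS. Its level went from 0.231 ± 0.0602 to 21.1 ± 0.760 CPM (SD, n = 3), and the log2 fold change was 6.50 (SE 0.13, adjusted p = 4.23e-18, edgeR). Il12a (chr3:68690644-68698547, plus strand, ENSMUSG00000027776.12) was low in both groups, at 5, 5 and 2 counts with PBS and 7, 5 and 6 counts with LPS. It failed the filter on low counts and was not tested with the other genes. The scaled ratio of its summed counts was 2.08, with a 95% counting interval of 0.948 to 4.73 that includes 1, so that a difference was not detectable at this depth, although its 3 LPS libraries lay above its 3 Control libraries in CPM. In a fit without that filter its log2 fold change was 1.01 with an adjusted p = 0.219 (edgeR). A count of 3 in a library corresponds to 0.063 to 0.0919 CPM here, and Il12a stood at 0.179 ± 0.0278 CPM (SD, n = 3) in LPS libraries.

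Il23a encodes the subunit that pairs with the Il12b product to form IL-23, a cytokine that maintains IL-17-producing T cells. It lies at chr10:128296139-128298752 on the minus strand (ENSMUSG00000025383.2). Control libraries held 1, 0 and 2 counts, LPS libraries 1346, 1212 and 1330 counts. The level in LPS libraries was 38.8 ± 1.51 CPM (SD, n = 3). With 3 Control counts in all, the scaled count ratio was 1796 with a 95% counting interval of 614 to 8715. The fitted log2 fold change was 10.62 (SE 0.16, adjusted p = 6.61e-20, edgeR), which depends on the prior count and was 11.43 without Control replicate 3. The next gene, Stat2, ends 3289 bp away on the opposite strand and encodes a transcription factor of interferon signalling. Stat2 moved the other way, from 154 ± 5.79 to 52.5 ± 2.83 CPM (SD, n = 3), and its log2 fold change was -1.56 (SE 0.04, adjusted p = 4.85e-16, edgeR). Pan2, 4582 bp away on the other side, had a log2 fold change of 0.16.

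Il27 and Ebi3 encode the subunits of IL-27, a cytokine with pro- and anti-inflammatory actions on T cells, and showed the smallest rises among the tested members. Il27 (chr7:126589010-126594941, minus strand, ENSMUSG00000044701.5) counted 61, 49 and 55 with PBS and 272, 305 and 280 with LPS. Its level went from 1.19 ± 0.0984 to 8.56 ± 0.683 CPM (SD, n = 3), and the log2 fold change was 2.85 (SE 0.12, adjusted p = 2.75e-13, edgeR). Ebi3 (chr17:55952640-55957022, plus strand, ENSMUSG00000003206.7) counted 1177, 1166 and 1104 with PBS and 2012, 2009 and 1985 with LPS. Ebi3 was the member with the most counts before stimulation, and its groups did not overlap. Its level went from 24.8 ± 0.945 to 59.9 ± 1.61 CPM (SD, n = 3), and the log2 fold change was 1.27 (SE 0.04, adjusted p = 1.89e-14, edgeR). With library size as the only scaling the log2 fold change of Ebi3 was 0.87 (adjusted p = 9.01e-12, edgeR) and no longer past the criterion of 1. Both genes overlap an annotated gene on the opposite strand, and whether strand was used in counting is not given in the sources used here. Il27 shares 103 exon bases with Apobr, whose log2 fold change was 0.31. Ebi3 shares 270 exon bases with the antisense gene Gm16712, which held 8, 20 and 7 counts with PBS and 29, 24 and 36 with LPS.

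**Figure D2:**
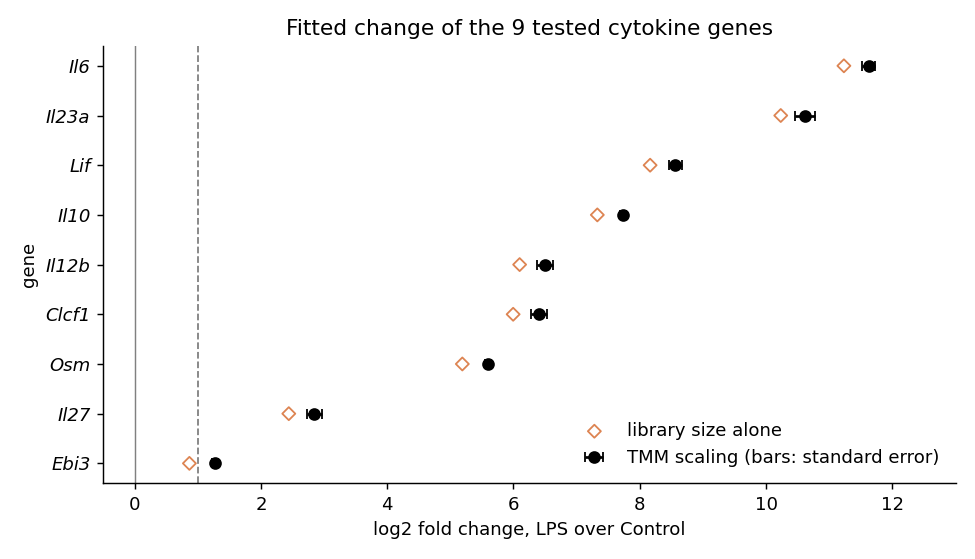
Fitted log2 fold change of LPS over Control for the 9 tested genes, in black with TMM scaling and as open diamonds with library size as the only scaling. Bars are standard errors derived from the F statistic, which are too narrow for genes with few Control counts. The dashed line marks the criterion of 1. Values run from 11.63 for Il6 to 1.27 for Ebi3, and each diamond lies to the left of its black point, with Ebi3 at 0.87.

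Because the scaling moved every gene alike, the changes are best read relative to it. TMM factors averaged 1.15 over Control and 0.869 over LPS libraries, and scaling by library size alone shifted the median log2 fold change of all tested genes by -0.404. Under that scaling 8 of the 9 tested members stayed past both criteria, from Il27 at 2.44 to Il6 at 11.23.

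The order of the members by level changed between the groups. On the scale of CPM per kb, the Control order of means was Ebi3 (21.5), Il10 (5.06), Osm (2.13) and Il27 (1.16), with the other 6 members at 0.118 or less. Among these low genes the library ranges of Il12b and Clcf1 overlapped, as did those of Il12a and Lif, Lif and Il6, and Il6 and Il23a, so their order is not resolved. In LPS libraries the order was Il10 (1077), Osm (103), Il6 (69.7), Ebi3 (51.9), Il23a (17.3), Lif (14.1), Il12b (10.7), Il27 (8.38), Clcf1 (6.93) and Il12a (0.105). No neighbours in this order had overlapping ranges, although Il27 exceeded Clcf1 by a mean ratio of just 1.21. The order also depends on the length used. Merged exons span 4350 bp in Lif and 1154 bp in Ebi3, but the coding sequences span 609 and 684 bp. Per base of coding sequence, Lif would stand above Ebi3 and Il23a, and Clcf1 above Il12b and Il27, so the middle ranks are not resolved. Il10 made up 15.7% to 17.5% of the members' summed per-kb level in Control and 78.8% to 79.6% in LPS libraries. Ebi3 went from 69.6% to 73.1% of it down to 3.67% to 4.02%. In CPM the 10 genes together took 38.1 to 38.7 in Control and 1985 to 2054 in LPS libraries.

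The paired subunits were compared by the log2 ratio of their counts per kb, with 0.5 counts added. For Il12a over Il12b the ratio was -0.42, -1.09 and -1.99 in Control and -6.36, -6.81 and -6.53 in LPS libraries. Il12b transcripts per length thus exceeded those of Il12a by 1.34- to 3.98-fold in Control and by 82.2- to 112-fold in LPS libraries, and the Control values rest on 2 to 13 counts per gene. The difference of the group means was -5.40. For Il27 over Ebi3 the ratio was -4.08, -4.38 and -4.14 in Control and -2.71, -2.54 and -2.65 in LPS libraries. The excess of Ebi3 over Il27 went from between 16.9- and 20.9-fold to between 5.82- and 6.53-fold, a difference of 1.57 in the log2 ratio. In both cases the groups did not overlap, and the exact two-sided permutation test gave p = 0.1, the smallest that 3 against 3 libraries allow (0.15 after Benjamini-Hochberg adjustment over the 3 ratios tested). For Il12a over Ebi3, the subunits of IL-35, the difference was -0.19 (exact permutation p = 0.6, adjusted 0.6), and the groups overlapped, with Ebi3 in 313- to 651-fold excess in Control and 396- to 538-fold in LPS libraries. For the ratios with Il23a only LPS values could be formed. There, Il23a exceeded Il12b by 1.49- to 1.68-fold and Il12a by 136- to 167-fold. The excess over Il12b depends on the merged exon lengths, 2247 bp for Il23a and 1967 bp for Il12b. It would be larger with the coding lengths of 588 and 1005 bp.

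**Figure D3:**
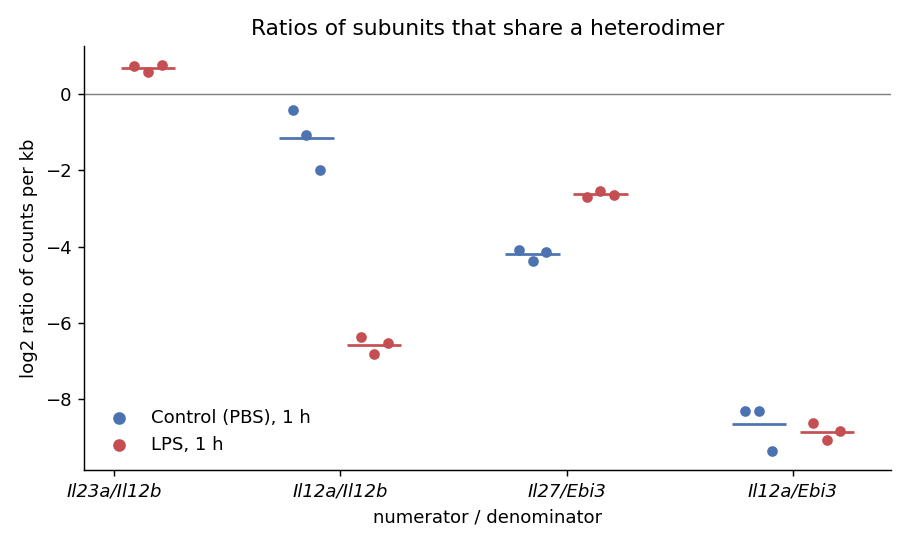
Log2 ratio of counts per kb for pairs of genes whose products share a heterodimer, with 1 point per library, blue for Control, red for LPS and a bar at the group mean. Il12a over Il12b has means of -1.17 in Control and -6.57 in LPS, Il27 over Ebi3 of -4.20 and -2.63, Il12a over Ebi3 overlaps between groups, and Il23a over Il12b has LPS values alone.

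The 3′ UTRs of the members were searched for AU-rich letters, which are known in short-lived cytokine mRNAs. In the longest coding transcript of each gene, the pentamer ATTTA occurred 4 to 7 times in 9 of the 10 genes and 1 time in Ebi3. The density was highest in Il27 (17.5 per kb), Il6 (14.1) and Il12a (12.1) and lowest in Lif (2.20), whose 3′ UTR of 3180 bases is the longest. The median over 12095 tested genes with an annotated 3′ UTR was 1.22 per kb, and over the 1098 of these called higher in LPS it was 1.74. The nonamer TTATTTATT, the stricter form, was present in Lif, Clcf1, Il12a, Il23a and Il27, against 7.14% of the tested genes and 11.7% of those called higher. Il12a, which held 2 to 7 counts in either group, and Il23a, with 1212 to 1346 counts in LPS libraries, both carried the nonamer and had 6 pentamers.

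The genes with the most similar levels were found by Euclidean distance over log2 CPM in the 6 libraries. For Il6 the nearest was Mir155hg (distance 0.565), the host transcript of miR-155, and for Osm the chemokine gene Ccl7 (0.521). For Il10 it was Csrnp1 (1.15), followed by Socs3 (1.33). Clcf1 was nearest to Bcl2a1a (0.919), an anti-apoptotic gene with near-identical copies among which reads may be split, and Lif to Plat (1.35), which encodes tissue plasminogen activator. The nearest were Gm45266 to Il12b (0.974), Gm8818 to Il23a (1.13), Gm20100 to Il27 (0.290) and Pip5k1a to Ebi3 (0.235). With 6 libraries in 2 groups, this distance reflects the level in each group more than any finer pattern.

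None of the tested receptor genes of these cytokine families passed the criteria. Their list includes Il11ra1, the chain for IL-11, which is no member, at -0.13 (adjusted p = 0.0345, edgeR). Of 12 receptor genes 10 were tested, the call was the same with edgeR, DESeq2 and limma voom, and their log2 fold changes ran from -0.60 to 0.85 with a median of -0.07. By edgeR's test 8 of the 10 had an unadjusted p under 0.05, and the same number an adjusted one. Among all 15687 tested genes these numbers were 10996 and 10626. Il10ra, the ligand-binding chain for IL-10, had a log2 fold change of 0.85 (adjusted p = 1.25e-13, edgeR), and Il10rb 0.35. The chains used by IL-6 and LIF had values of -0.42 for Il6ra, -0.39 for Il6st and -0.45 for Lifr, all 3 with non-overlapping groups but below the criterion of 1. Osmr, with 25 to 39 counts per library, stood at 0.28 (adjusted p = 0.279, edgeR), a value that was -0.13 with library size alone. Il12rb1 stood at -0.60, and past the criteria as lower with library size alone, and Il12rb2 at 0.75, and Il27ra was at -0.00 (adjusted p = 0.975, edgeR). Cntfr and Il23r held 0 to 2 counts per library.

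Among 9 other ligands of the same families only Il19 and Cntf were tested. Il19 stood at 0, 1 and 2 counts with PBS and at 81, 54 and 54 counts with LPS. Its scaled count ratio was 87.3 with a 95% counting interval of 29.4 to 427, and its fitted log2 fold change of 6.25 (SE 0.44, adjusted p = 5.82e-10, edgeR) depends on the prior count. It was 7.07 without Control replicate 3 and 5.71 without Control replicate 1. Il20, also of the IL-10 family, had 0 counts in each Control library and 10, 8 and 12 counts with LPS, at least 4.61-fold higher against a floor of 3 counts per library. Cntf had a log2 fold change of -0.26.

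A signalling list of 15 genes held JAKs, STATs, regulators of their signalling and the nuclear factors Nfil3 and Bcl3. Of these 15 genes 8 were higher, none was lower, and the median log2 fold change was 1.92. By the same criteria 10.5% of all tested genes were higher and 10.4% lower. Socs3, which blocks gp130 signalling, went from 451, 498 and 486 counts to 62985, 62674 and 60944, a log2 fold change of 7.49 (adjusted p = 5.45e-24, edgeR). Cish rose by 6.52, Socs1 by 3.16 and Socs2 by 1.92 on the same scale, and Nfil3 and Bcl3, which encode nuclear factors linked to IL-10 action, by 3.84 and 2.21. Of the kinases, Jak2 rose by 3.31, while Jak1 (0.31) and Tyk2 (0.02) were below the criterion. Stat4 rose by 2.18, while Stat3 (0.54) was below it.

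Of 21 genes described as regulators of Il6, Il10 or Il12b transcription or mRNA decay, 12 were higher and 1 lower, with a median log2 fold change of 1.70, beside 10.5% higher and 10.4% lower among all tested genes. Nfkbiz, which encodes the nuclear cofactor required for Il6 and Il12b induction, rose most, by 5.57 (adjusted p = 2.69e-24, edgeR). The NF-kB subunit genes Rel and Nfkb1 rose by 4.13 and 2.67, and Cebpb by 2.91. Rela, at 1.06, was past the criterion with TMM scaling, but at 0.66 with library size alone. Of 7 genes for proteins that promote decay of cytokine mRNAs, Zfp36 (4.26), Zc3h12c (4.23), Zc3h12a (3.59) and Zfp36l1 (1.70) rose, Rc3h1 (0.72) and Rc3h2 (0.49) were below the criterion, and Zc3h12d fell by 1.16 on the log2 scale. Arid5a, whose product protects Il6 mRNA, rose by 2.08. Fos (2.40) and Irf1 (2.12) also rose. Irf8 (-0.80), Maf (-0.25) and Jun (-0.18) were below the criterion.

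**Figure D4:**
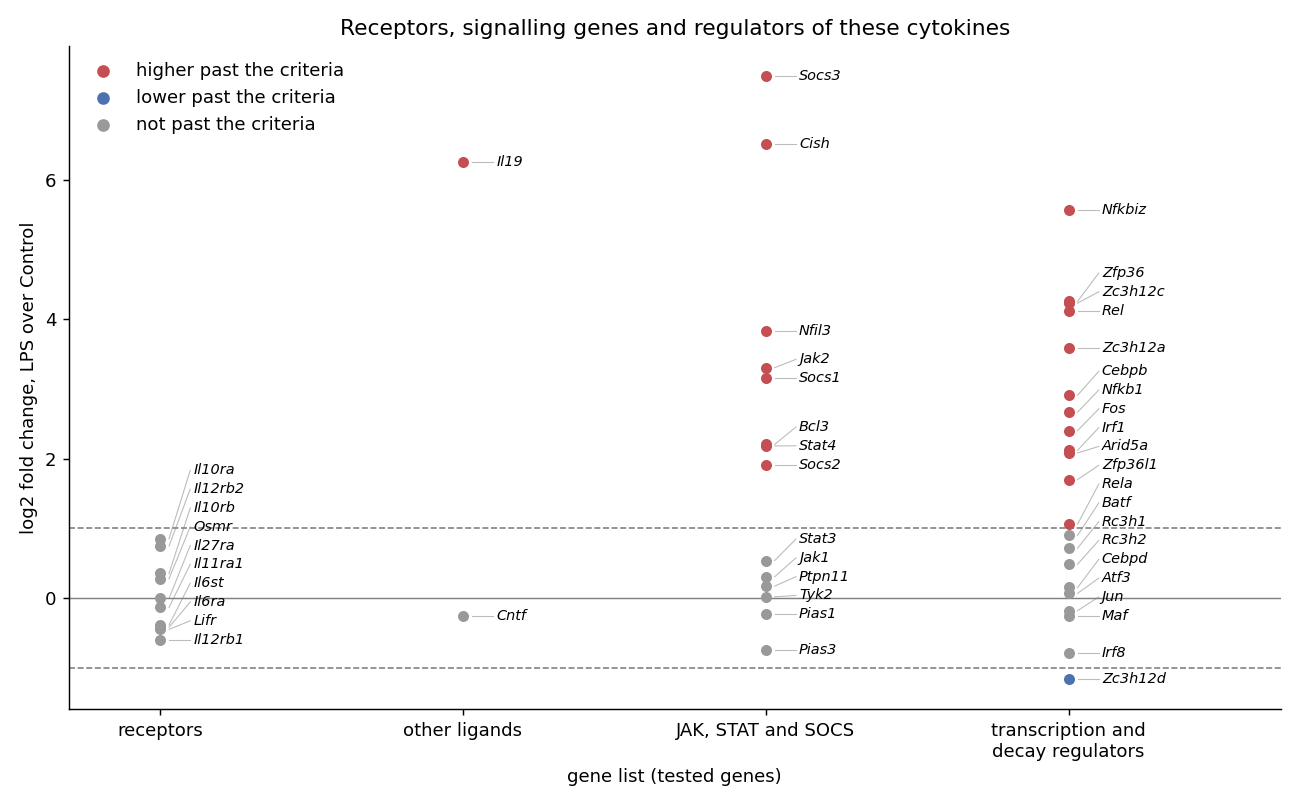
Log2 fold change of LPS over Control for tested receptor genes, other ligands of the families, the signalling list (labelled JAK, STAT and SOCS, with Nfil3 and Bcl3) and regulators, 1 point per gene shown, red or blue where past the criteria and grey otherwise; dashed lines mark 1 and -1. All 10 receptors lie in the grey band, whereas 8 signalling genes and 12 regulators lie above it.

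Around the members, 18 distinct coding genes that are no members were nearest on either side, and 15 of them were tested. Of the 15, 6 were higher, 1 was lower and 8 were not called, where 10.5% of all tested genes were higher and 10.4% lower. Il19 and 1110032F04Rik passed the filter on low counts through their LPS libraries, so a difference was built into their passing and the count is a description. The higher ones were Dnajb6 (1.48) beside Il6, Castor1 beside Osm, Il19 and Mapkapk2 beside Il10, 1110032F04Rik (5.05, with 0 or 1 count in Control and 11 or 12 in LPS libraries) beside Il12a, and Nupr1 (2.41) beside Il27. Stat2 beside Il23a was the lower one.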

How the data were processed

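Total RNA of C57BL/6 BMDMs was sequenced from stranded libraries, 3 Control and 3 LPS. The authors aligned paired-end reads to GRCm38 with HISAT2 2.1.0, handled alignments with SAMtools 1.17 and counted reads per gene with featureCounts 2.0.0 (FastQC 0.11.9 is also named in the submitters' processing notes). The deposited values are raw counts. The annotation release, strand setting and treatment of multi-mapping reads are not given in the sources used here. Of 55335 identifiers, 55154 matched GENCODE M21 without the version, and coordinates are from M21.

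Counts were analysed in R 4.3.3 with edgeR 4.0.16 (filterByExpr, TMM, glmQLFit and glmQLFTest, no block), p-values adjusted by Benjamini-Hochberg over 15687 genes, and calls made where the adjusted p was under 0.05 and the log2 fold change beyond 1 in either direction, as in the study. Standard errors come from the quasi-likelihood F statistic, as the absolute log2 fold change divided by its square root. They are too small where Control counts are few (Il6, Lif, Clcf1, Il12b, Il23a and Il19). Levels are TMM-scaled CPM, per kb of merged M21 exons where genes are compared. Where the Control libraries together held 3 counts (Il23a, Il19) or 7 (Il6), a scaled count ratio with its exact interval was given instead of a bound. Ratios of subunits were tested with an exact permutation test over libraries in scipy 1.17.1, adjusted over the 3 ratios that could be tested of the 5 planned. Promoter windows are those of RefSeq (GRCm38.p6).

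The members and gene lists were chosen with earlier results of these data known. Named genes are the 10 members, the called genes of 4 related lists and receptors or ligands of members, overlapping and neighbouring genes, and the nearest gene by level; Socs3 beside Il10 was named after its value was seen. The labels give each group batches 1, 2 and 3, equal to the replicate numbers, which pairs the libraries by label. Deviations from the group means correlated between same-numbered libraries by -0.0139 to 0.0822. Between differently numbered libraries the correlations were -0.0817 to 0.0446, a range that overlaps the first. No libraries were identical. Alternatives were other scalings and filters, DESeq2 1.42.0, limma 3.58.1 with voom, the replicate block, removal of the 10 genes with the highest mean count, and leaving out each library. The functions were tested on simulated data. The value of 1 gene of the signalling list is not reported or plotted here, although the list's counts and median include it.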

Additional observations from a re-analysis of the deposited data

How the results depend on the processing

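Of 131 values of the members under alternative settings, 130 kept their direction and their side of the criteria, the exception being Ebi3 at 0.87 with library size alone. Across settings the log2 fold change ranged from 11.23 to 12.22 for Il6, from 10.11 to 11.43 for Il23a, from 7.33 to 7.75 for Il10 and from 2.44 to 2.90 for Il27. Requiring at least 10 counts in every library left 5 members past the criteria, because Il6, Lif, Il12b and Il23a had fewer than 10 counts in a Control library and were not tested. Genes lower in LPS numbered 1624 among all tested genes, 2964 with library size alone, where the higher ones went from 1653 to 1213, and 1027 with the filter of 10 counts.

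The replicate block changed no call of a member or list, with 9 members higher and Il6 at 11.63. With library size alone, 1 receptor (Il12rb1), 1 gene of the signalling list (Pias3, -1.14) and 2 regulators (Zc3h12d and Irf8, -1.20) were lower, and Osmr (-0.13) and Il10rb (-0.052) changed sign. Rela was at 0.66 there and at 0.92 with upper quartile scaling. Of the other ligands, 2 were higher without the filter (Il19 and Il20), 0 with the filter of 10 counts, and 1 to 2 when a library was left out. Il27ra was at 0.0144 with DESeq2's size factors and 0.0142 with DESeq2's test, and ran from -0.059 to 0.028 when a library was left out. The cause was not tested. Folds of Il6, Il23a and Il19 are limited by depth, since each had 7 or fewer Control counts in all.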
